A study of Mus musculus with 5 samples.

Results

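A set of 10 genes of acetylcholine signalling was followed in the ribosome-bound RNA of central amygdala (CeA) Drd2 neurons, of 15093 genes in the deposited table. They were chosen by name and all 10 were found. The 7 receptor genes are the muscarinic receptors Chrm1, Chrm2, Chrm3 and Chrm4 and the nicotinic subunits Chrna4, Chrna7 and Chrnb2, and the other 3 are Chat, Slc5a7 and Ache. The RNA came from adult Drd2-TRAP mice, in which Cre from a Drd2 transgene removes a stop cassette from the Rosa26 locus and so turns on a ribosomal protein (L10a) tagged with EGFP. Tagged ribosomes were pulled down from bilateral punches centred over the CeA and the bound RNA was sequenced (translating ribosome affinity purification, TRAP). Every library was a pool of 3 animals collected at 2 h after the session. There were 3 libraries of fear conditioned mice, which received tones paired with foot shock (replicates 2, 3 and 4), and 2 of control mice (replicates 6 and 7), which the labels call home cage animals and the paper describes as exposed to the tone alone. The labels place the collection after fear extinction and the paper after fear conditioning, and which session preceded it cannot be told apart from these sources. All groups carried the same transgenes, and no library of untagged tissue or of the unbound fraction was analysed here.

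Acetylcholine acts on muscarinic receptors, which couple to G proteins, and on nicotinic receptors, which are ion channels assembled from several subunits. Chrm1 and Chrm3 encode receptors that couple to Gq and generally raise excitability, while Chrm2 and Chrm4 encode receptors that couple to Gi and lower cyclic AMP. Chrna4 and Chrnb2 encode the partners of the most common heteromeric nicotinic receptor of the brain, and Chrna7 forms homomeric channels that pass calcium. Chat makes acetylcholine, Slc5a7 returns choline to the terminal and Ache breaks the transmitter down. Chat and Slc5a7 together mark cholinergic neurons, which in the striatum and basal forebrain lie near the amygdala and can themselves express Drd2.

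Of the 10 genes, 9 were matched to promoters in a RefSeq table (build GRCm38.p6), and the 250 bases before the start of each gene were read on its own strand. The promoters of Chat and Slc5a7 are shown because this pair marks the cholinergic neuron and shared an order among the fear conditioned libraries, and that of Chrna4 because its groups of libraries did not overlap. Capitals mark matches, on either strand, to 5 short motifs: the E-box CACGTG, the cyclic AMP element core TGACG, the GC box GGGCGG, the homeodomain core TAATTA and the TATA box TATAAA.
Chat (chr14:32465910-32466159, minus strand): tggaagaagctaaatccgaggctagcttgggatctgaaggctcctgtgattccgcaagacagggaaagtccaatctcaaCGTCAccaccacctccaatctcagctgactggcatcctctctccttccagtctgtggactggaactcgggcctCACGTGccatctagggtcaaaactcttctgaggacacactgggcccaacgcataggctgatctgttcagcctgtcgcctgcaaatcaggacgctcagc
Slc5a7 (chr17:54299035-54299284, minus strand): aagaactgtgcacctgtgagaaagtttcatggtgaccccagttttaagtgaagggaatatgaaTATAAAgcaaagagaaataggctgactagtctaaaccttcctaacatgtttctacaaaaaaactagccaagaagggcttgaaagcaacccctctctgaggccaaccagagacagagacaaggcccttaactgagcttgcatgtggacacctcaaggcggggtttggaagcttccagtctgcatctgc
Chrna4 (chr2:181039178-181039427, minus strand): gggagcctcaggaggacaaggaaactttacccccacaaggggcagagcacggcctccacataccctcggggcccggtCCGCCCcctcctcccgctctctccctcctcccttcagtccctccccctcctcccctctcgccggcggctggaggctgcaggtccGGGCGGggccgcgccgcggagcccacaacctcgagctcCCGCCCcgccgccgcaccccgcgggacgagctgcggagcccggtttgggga
The Chat promoter held 1 E-box and 1 cyclic AMP element core, the Slc5a7 promoter 1 TATA box, and the Chrna4 promoter 3 GC boxes, and none of these matches overlapped. Over all 32851 promoters of the table, 6.02% held the E-box, 17.8% the cyclic AMP element core, 32.7% the GC box, 4.84% the homeodomain core and 12.4% the TATA box. Chat and Slc5a7 thus shared no match in this window, and the homeodomain core was found in 0 of the 9 promoters. The share of G and C was 54.8% for Chat, 45.6% for Slc5a7 and 74.4% for Chrna4, beside a median of 52.4% over all promoters.

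Values are counts per 1000000 of an effective library size (CPM). Between 19605318 and 27937520 reads on genes were recovered per library, so that 3 reads, taken as the floor for detection, equal 0.10 to 0.158 CPM, a limit that covers counting error only. The median SD of log2(CPM + 1) over the genes tested was 0.77 between the 2 controls and 0.23 among the 3 fear conditioned libraries, while over the 10 genes it was 0.69 and 0.56. In control replicate 7, 15.7% of the tested genes had 3 reads or fewer, and in control replicate 6, 4.23%. Drd2 had 326, 375 and 555 CPM after fear conditioning, beside 128 and 262 in the controls. The summed level of the 7 listed Drd2 neuron markers was 19921 to 21659 CPM after fear conditioning and 8889 to 13334 in controls. Of these 7 genes, 6 had a log2 fold change above 0 and 1 below. The lower gene was Gad2, with 435, 481 and 472 CPM against 657 and 671, and the groups overlapped for Gad1. The summed markers of several other cells were lower, with 59.4 to 111 CPM against 1021 to 1446 for 8 choroid plexus genes, 866 to 1064 against 2198 to 2920 for 8 astrocyte genes, and 88.5 to 268 against 413 to 517 for 10 pallial glutamatergic genes, of which 4 had a log2 fold change above 0 and 6 below. Of the tested choroid plexus genes, 1 had a log2 fold change above 0 and 6 below, and of the astrocyte genes 2 and 6. The 5 Drd1 neuron genes summed to 177 to 363 CPM against 100.5 to 110.1. The part of these differences in the results below was not tested.

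Chrm1 (ENSMUSG00000032773) was the leading receptor gene and, among the fear conditioned libraries, the steadiest of the 10 genes. Fear conditioned replicates 2, 3 and 4 held 135, 147 and 143 CPM of it, and the controls 110.0 and 140, from at least 2648 reads in each library. All 5 libraries lay within a narrow band, and control replicate 7 fell inside the fear conditioned range. Its SD of log2(CPM + 1) among the fear conditioned libraries was 0.06, and 94.5% of the tested genes had a larger one. Chrm1 ranked above 86.2% to 89.6% of the listed genes of a library. The groups differed by 0.19 on the log2 scale (SE, the standard error, 0.22), which did not pass (adjusted p = 0.676, limma with Benjamini-Hochberg adjustment over 13560 genes).

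Chrm4 (ENSMUSG00000040495), the Gi-coupled receptor that is well known from striatal projection neurons, was far lower and uneven. It had 8.87, 4.96 and 14.8 CPM after fear conditioning, beside 8.55 and 0.11 in the controls. The low value in control replicate 7 rested on 2 reads, under the floor, while control replicate 6 held 256 reads and lay within the fear conditioned range. The log2 fold change of 1.59 (SE 1.02, limma adjusted p = 0.462) depended on the control used: it was 3.14 without control replicate 6 and 0.03 without control replicate 7. Per kilobase of the deposited gene length, Chrm4 stood at 3.05 to 9.11 CPM per kilobase after fear conditioning, beside 19.5 to 21.2 for Chrm1. The deposited lengths of Chrm3 and Chrm4, 1948 and 1625 bases, are short beside those of Chrm1 and Chrm2, 6936 and 6220 bases, so levels per length depend on which transcript each length stands for.

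Chrm2 (ENSMUSG00000045613), the other Gi-coupled receptor and a known autoreceptor of cholinergic terminals, had the largest SD of log2(CPM + 1) of the 10 genes in both groups, though not the largest ratio of highest to lowest value, which was that of Chrm3 after fear conditioning and, among genes with reads in both controls, Chrm4 there. Its values were 1.90, 7.83 and 8.14 CPM after fear conditioning, beside 18.8 and 0.26 in the controls. The controls held the highest and the lowest of the 5 values, from 562 and 5 reads. With a log2 fold change of 0.30 (SE 1.25, limma adjusted p = 0.918), no direction can be given: it was 2.29 without control replicate 6 and -1.68 without control replicate 7, and -0.66 with DESeq2 on the recovered reads.

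Chrm3 (ENSMUSG00000046159), the second Gq-coupled receptor, was detected in the fear conditioned libraries and not in the controls. It had 0.76, 3.41 and 3.72 CPM after fear conditioning, from 16, 82 and 75 reads, and 0 reads in both control libraries. Set against the mean floor of 3 reads in the controls, the mean of the fear conditioned libraries was at least 20.4-fold higher. That bound is for the mean and does not hold for replicate 2 alone, which had 0.76 CPM. Chrm3 was tested only through the fear conditioned libraries. On the log2(CPM + 1) scale, which understates the change of low genes, the difference was 1.73 (SE 0.63, limma adjusted p = 0.257), which did not pass. DESeq2 on the recovered reads called it (adjusted p = 0.00889) and edgeR's quasi-likelihood test did not (adjusted p = 0.156). Chrm5, the remaining muscarinic receptor and named after its values were seen, had 0.24, 0.37 and 0.25 CPM after fear conditioning, beside 3.27 and 0.05 in the controls. It was under the minimum for testing.

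**Figure D1:**
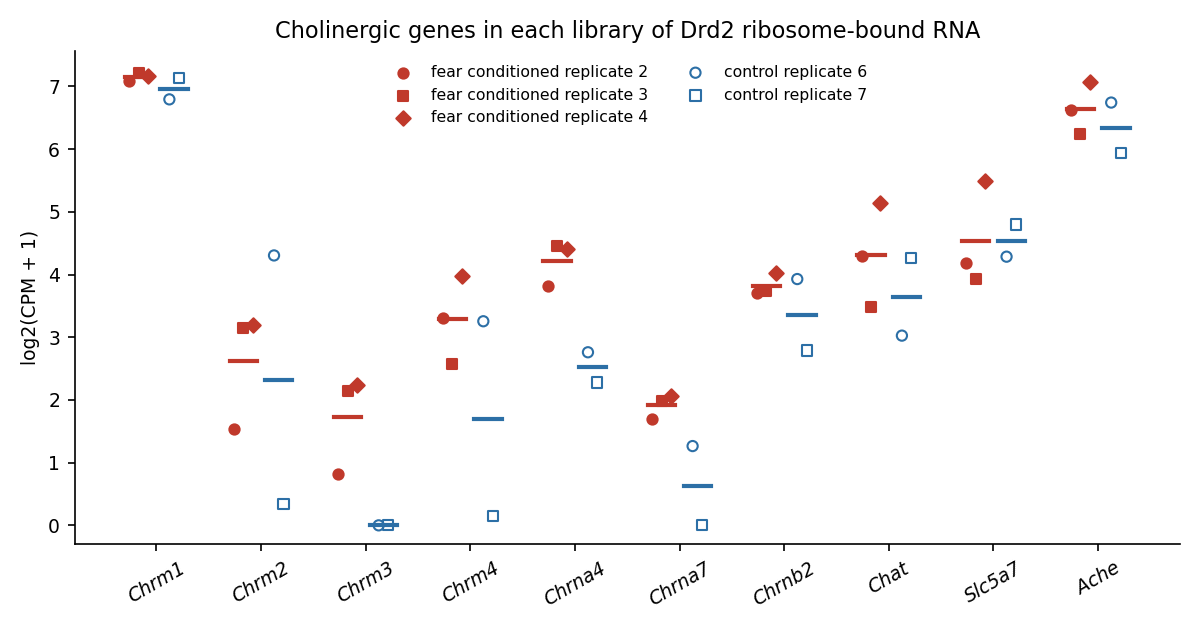
Log2(CPM + 1) of the 10 genes in each library, with filled red symbols for the 3 fear conditioned libraries, open blue symbols for the 2 control libraries and a bar at each group mean. Chrm1 and Ache lie at the top in every library, and the groups are apart for Chrm3, Chrna4 and Chrna7 only.

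Chrna4 (ENSMUSG00000027577) was the nicotinic gene with the clearest separation of the groups. Its values were 13.1, 20.8 and 20.2 CPM after fear conditioning (18.0 ± 4.29, SD, n = 3) and 5.78 and 3.85 in controls (4.81 ± 1.36, SD, n = 2). All 3 fear conditioned libraries were above both controls, and no library came near the floor, with 73 reads at the fewest. The mean difference was 1.70 on the log2 scale (SE 0.51), with an unadjusted p of 0.0151 and an adjusted p of 0.221 from limma, so Chrna4 did not pass. It stayed between 1.46 and 1.94 with each library left out in turn, and DESeq2 called it with a log2 fold change of 1.88 (adjusted p = 0.0218) where edgeR's quasi-likelihood test did not (adjusted p = 0.209).

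Chrnb2 (ENSMUSG00000027950), the usual partner of Chrna4, did not show this separation. It had 12.1, 12.3 and 15.2 CPM after fear conditioning, beside 14.2 and 5.91 in the controls. Control replicate 6 lay among the fear conditioned libraries, and only control replicate 7 was lower. Its log2 fold change of 0.46 (SE 0.55, limma adjusted p = 0.686) was -0.11 without control replicate 7 and 1.03 without control replicate 6. In RefSeq, Chrnb2 overlaps Adar and Chrm4 overlaps Mdk, and Chrm2, Chrm3, Chat and Ache overlap other transcripts. The sources used here do not state whether reads were counted by strand, so reads shared with these neighbours cannot be set apart.

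The balance of the 2 nicotinic partners within a library does not depend on how that library was scaled. Chrna4 stood at 108%, 169% and 132% of Chrnb2 in the fear conditioned libraries and at 40.6% and 65.2% in the controls. Chrna4 was the more abundant of the pair in all 3 fear conditioned libraries and the less abundant in both controls. The mean log2 ratio was 0.42 ± 0.32 (SD, n = 3) after fear conditioning and -0.96 ± 0.48 (SD, n = 2) in controls. The difference of 1.38 gave p = 0.1 in an exact permutation test (two-sided), the smallest p that 3 libraries against 2 allow, and 0.275 after adjustment over the 11 ratios compared.

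Chrna7 (ENSMUSG00000030525) was low in the fear conditioned libraries and control replicate 6 and had no reads in control replicate 7. It had 2.23, 2.96 and 3.18 CPM after fear conditioning, from 47 to 71 reads, and 1.40 and 0 CPM in controls, from 42 reads and 0 reads. The fear conditioned libraries lay close together and all were above both controls. Its log2 fold change was 1.28 (SE 0.60, limma adjusted p = 0.343), and neither DESeq2 (adjusted p = 0.630) nor edgeR's quasi-likelihood test (adjusted p = 0.636) called it. Of 16 nicotinic subunits 5 were listed, and beside the members these were Chrna2 and Chrna10, both named after their values were seen. Chrna2 had 4.36, 1.00 and 1.34 CPM after fear conditioning, beside 5.78 and 0 in the controls, with groups that overlapped. Chrna10 had 2.13, 1.29 and 0.45 CPM and 0 and 0.05 in controls, the latter from 0 reads and 1 read.

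**Figure D2:**
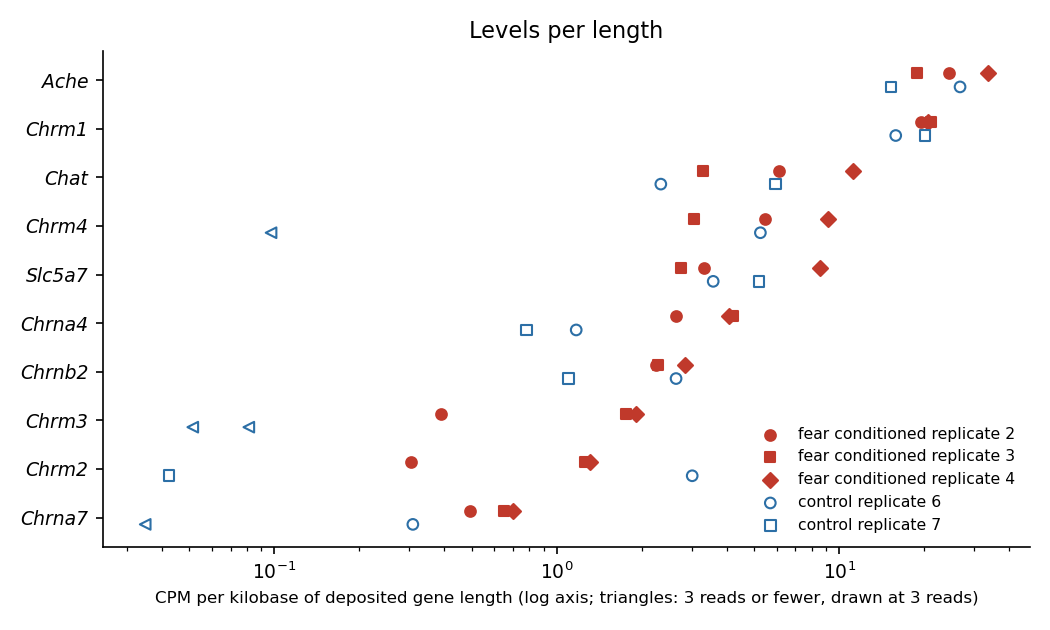
CPM per kilobase of the deposited gene length for each gene and library on a log axis, ordered by the mean of the fear conditioned libraries. Filled red symbols are fear conditioned libraries, open blue symbols are controls and triangles are values from 3 reads or fewer, drawn at the level of 3 reads. Ache and Chrm1 stand above the other 8 genes in every library.

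Per length, Ache and Chrm1 led in both groups, at 25.7 and 20.4 CPM per kilobase after fear conditioning and 21.0 and 18.0 in controls. These neighbours overlapped: the Ache values ran from 15.3 to 33.5 CPM per kilobase over the 5 libraries and enclosed those of Chrm1, from 15.9 to 21.2. Chat, Chrm4 and Slc5a7 followed at 6.87, 5.87 and 4.87 CPM per kilobase after fear conditioning, an order within the spread between libraries. Chrna4, Chrnb2, Chrm3, Chrm2 and Chrna7 stood lowest, between 3.66 and 0.61 CPM per kilobase. In the controls Slc5a7, Chat and Chrm4 again formed the next group, at 4.39, 4.14 and 2.66 CPM per kilobase.

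Chat (ENSMUSG00000021919), the enzyme that makes acetylcholine, was detected in every library of the Drd2 pull-down. It had 18.7, 10.1 and 34.2 CPM after fear conditioning, beside 7.15 and 18.2 in the controls, from 214 to 689 reads. Fear conditioned replicate 4 was the highest library and control replicate 6 the lowest, and the groups overlapped. A difference of 0.66 in log2(CPM + 1) was found (SE 0.67, limma adjusted p = 0.638), which was 0.04 without control replicate 6 and 1.28 without control replicate 7. Slc18a3, the vesicular acetylcholine transporter whose gene lies within that of Chat in RefSeq, was not among the 15093 genes listed. Neither was Lhx8, a transcription factor of cholinergic neurons.

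Slc5a7 (ENSMUSG00000023945), the choline transporter, had 17.2, 14.2 and 44.0 CPM after fear conditioning, beside 18.5 and 26.8 in the controls. Fear conditioned replicate 4 was again the highest library, while both controls lay between it and the other fear conditioned libraries. The log2 fold change was -0.01 (SE 0.57, limma adjusted p = 0.996). Without fear conditioned replicate 4 it was -0.49. In the fear conditioned libraries Chat and Slc5a7 varied more than almost all tested genes, since 1.08% of them had a larger SD than Chat and 0.996% a larger SD than Slc5a7. This was not particular to the pair, since 0.516%, 1.28% and 2.41% had a larger SD than Chrm2, Chrm3 and Chrm4.

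Ache (ENSMUSG00000023328), the enzyme that ends the signal and is made by many neurons besides cholinergic ones, had 97.4, 74.8 and 133 CPM after fear conditioning, beside 106 and 60.4 in the controls. The highest library was once more fear conditioned replicate 4, and the lowest was control replicate 7. The groups overlapped, with a log2 fold change of 0.30 (SE 0.36, limma adjusted p = 0.695), which was -0.10 without control replicate 7 and 0.70 without control replicate 6.

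Relative to Drd2 in the same library, Chat stood at 5.74%, 2.70% and 6.17% after fear conditioning and at 5.57% and 6.95% in controls. The log2 ratio differed by -0.44 between the groups, which the spread among libraries covered (two-sided exact permutation test, p = 0.6). Slc5a7 stood at 5.26%, 3.80% and 7.94% of Drd2 after fear conditioning and at 14.4% and 10.3% in controls. Both controls were above the fear conditioned libraries, a difference of -1.17 in the log2 ratio (exact permutation test, two-sided, p = 0.2, adjusted p = 0.44 over the 11 ratios). The ratio of Slc5a7 to Drd2 was added after the values were seen, so its p is a description only.

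Chrm1 relative to Drd2 was also lower after fear conditioning, at 41.4%, 39.2% and 25.8% against 85.7% and 53.4%. Chrm1 itself overlapped between the groups while Drd2 was higher in every fear conditioned library, by a log2 fold change of 1.15 (adjusted p = 0.239, limma). The difference was -0.96 on the log2 scale (exact permutation p = 0.1, the smallest possible, adjusted p = 0.275). Chat stood at 109%, 71.1% and 77.7% of Slc5a7 after fear conditioning and at 38.6% and 67.8% in controls, higher in all 3 fear conditioned libraries by 0.72 on the log2 scale (exact permutation p = 0.1, adjusted p = 0.275). Chrna4 relative to Drd2 did not separate the groups, at 4.01%, 5.56% and 3.63% after fear conditioning and 4.50% and 1.47% in controls (exact permutation p = 0.4). All ratios of this paragraph were added after the values were seen, so their p-values are a description only.

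The other 5 ratios gave no adjusted p under 0.275. Chrna7 relative to Chrnb2 stood at 18.4%, 23.99% and 20.8% after fear conditioning, above the 9.86% and 2.68% of the controls, where control replicate 7 was set to the floor of 3 reads (difference 2.03 on the log2 scale, exact permutation p = 0.1, adjusted p = 0.275). Ache relative to Drd2 overlapped between the groups, with a log2 difference of -0.85 (exact permutation p = 0.4). Chrm4 relative to Chrm1 stood at 6.56%, 3.37% and 10.3% after fear conditioning and at 7.77% and 0.113% in the controls (exact permutation p = 0.4), again with control replicate 7 at the floor. Chrm4 relative to Drd2, and the summed Gi-coupled relative to the summed Gq-coupled receptors (Chrm2 and Chrm4 to Chrm1 and Chrm3), each gave an exact permutation p of 0.7.

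**Figure D3:**
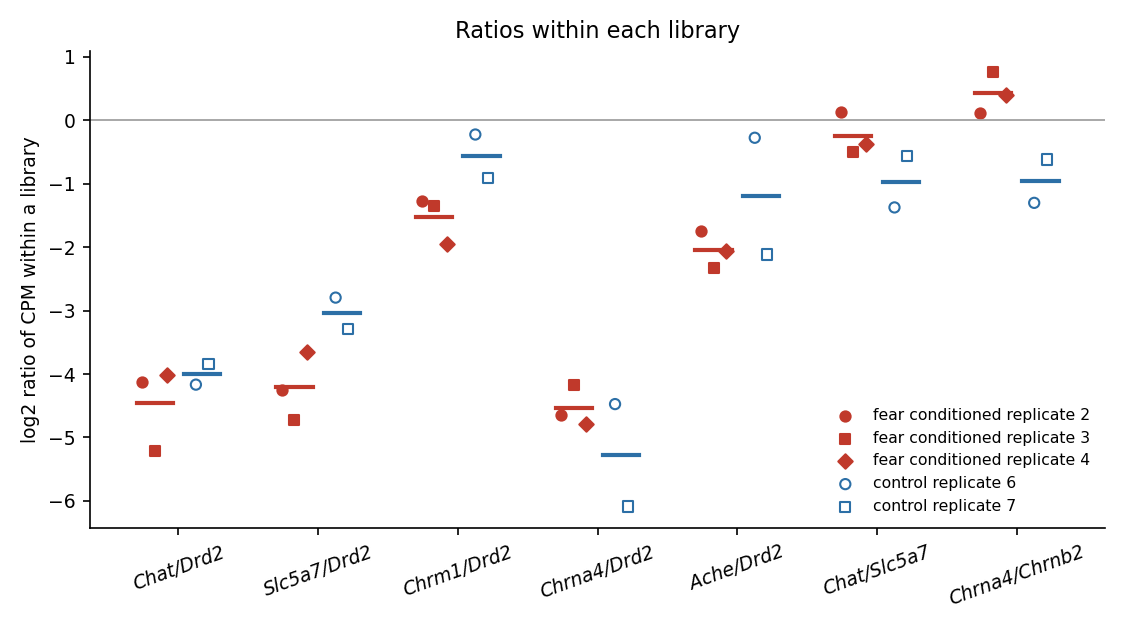
Log2 ratios of CPM within each library, with filled red symbols for fear conditioned libraries, open blue symbols for controls and a bar at each group mean. Chrna4 is above Chrnb2 in the 3 fear conditioned libraries and below it in the 2 controls, while the ratios of Chat, Chrna4 and Ache to Drd2 overlap between the groups.

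Chat and Slc5a7 had the same order among the fear conditioned libraries, with replicate 4 above replicate 2 and replicate 2 above replicate 3. Chrm4 and Ache had it too, so that 4 of the 10 genes did, where 13.4% of all tested genes did. The order was then counted over a list of 13 genes of cholinergic neuron identity, of which 11 were listed, including Chat and Slc5a7, in which it had first been seen. It was found in 9 of these 11: also in Gbx1, Isl1, Nkx2-1 and Lhx6, transcription factors of the ventral forebrain lineages, in Ngfr, a receptor for neurotrophins, and in Zic4 and Tacr1. Slc17a8, a vesicular glutamate transporter, and Trh, a peptide, did not have it. The sum of the 11 genes was 94.8, 74.1 and 160.2 CPM in fear conditioned replicates 2, 3 and 4, so that replicate 4 stood 2.16-fold above replicate 3. In control replicates 6 and 7 the sum was 123 and 64.4 CPM, while Chat and Slc5a7 were each higher in control replicate 7. At 3 reads or fewer were 1 of the 11 genes in control replicate 6 and 6 in control replicate 7.

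Of these genes, Nkx2-1 is given in full as a choice made after its values were seen. Nkx2-1, which specifies neurons born in the medial ganglionic eminence, had 2.65, 1.62 and 4.22 CPM and 2.07 and 0 in controls. It followed Chat among the fear conditioned libraries but differed from it in the controls, where Chat was higher in replicate 7 and Nkx2-1 in replicate 6. In bulk RNA, fewer cells of a type and less RNA per cell cannot be told apart.

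The same order was found in 6 of 8 oligodendrocyte markers, in 5 of 8 astrocyte markers and in 2 of 5 Drd1 neuron markers. It was found in 2 of 8 microglia markers and in 2 of 10 GABAergic interneuron markers. Isl1 of the Drd1 list and Lhx6 of the interneuron list are also in the cholinergic list. In 1 of 8 endothelial and mural markers and 1 of 10 pallial glutamatergic markers the order was found. It was found in 0 of 8 choroid plexus markers and 0 of the 7 Drd2 neuron markers. Replicate 4 was still the highest fear conditioned library for 5 of the 7 Drd2 neuron markers. The oligodendrocyte markers summed to 1834, 1265 and 2665 CPM in fear conditioned replicates 2, 3 and 4. The Drd1 neuron markers summed to 219, 177 and 363 CPM, in the same order and 2.05-fold higher in replicate 4 than in replicate 3. That ratio was 2.02 for the endothelial and mural sum and 1.82 for the microglia sum. Pallial glutamatergic markers went the other way, with 268, 256 and 88.5 CPM. The part of these sums in the pattern was not tested.

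**Figure D4:**
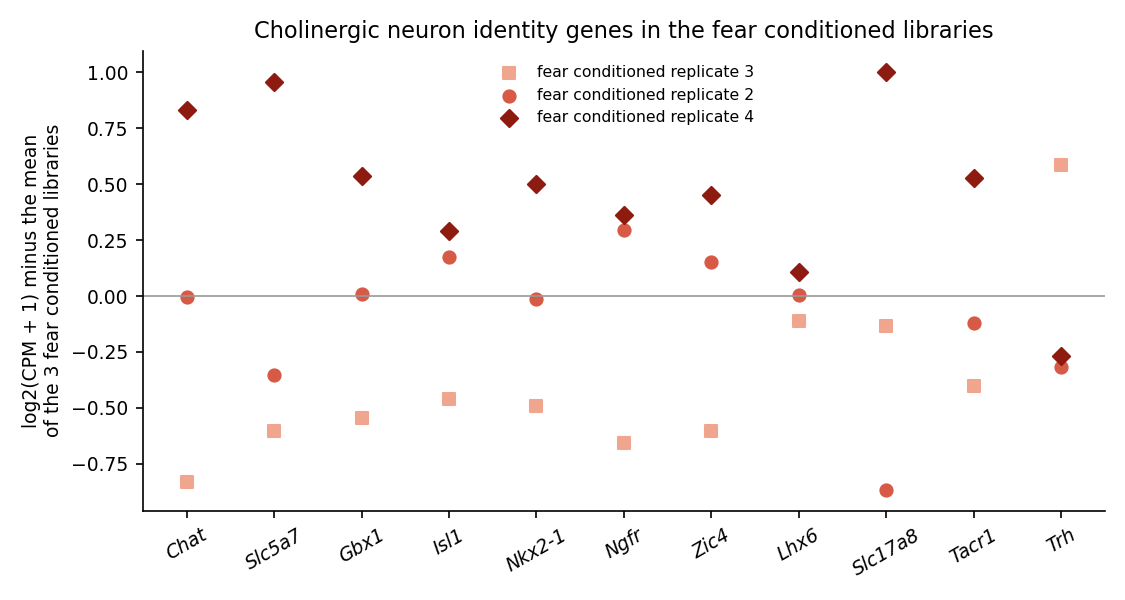
Log2(CPM + 1) of 11 cholinergic neuron identity genes in the 3 fear conditioned libraries, each centred on its mean over them. Replicate 4 is the highest library for 10 genes, and replicate 3 the lowest for the 9 genes that share one order.

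Over the whole comparison, 0 of the 10 genes passed an adjusted p of 0.05 with an absolute log2 fold change over 0.5 in limma, beside 0.0% of the 13560 genes tested, of which 2280 (16.8%) had an unadjusted p under 0.05. At an unadjusted p under 0.05 there were 2 of the 10, Chrm3 and Chrna4, both higher after fear conditioning, where 9.49% of all tested genes were higher and 7.32% lower at that level. All fear conditioned libraries were above both controls for 3 genes, Chrm3, Chrna4 and Chrna7, and below both for 0, beside 20.2% and 16.1% of all tested genes (36.4% in either direction). The median log2 fold change of the 10 genes was 0.56, beside 0.08 over all tested genes. Of the 10 values 9 were above 0, as were 7329 of the 13560 over all tested genes. The sign changed with the control library left out for Chrm2, Chrnb2, Slc5a7 and Ache. All 10 genes had a mean value of at least 1 over the libraries and were tested. Chrm3 and Chrna7 had a mean under 1 in controls and so were tested only through the libraries in which they were higher.

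Most of these values depended on which control library was used. At 3 reads or fewer were 1 of the 10 genes in control replicate 6 (Chrm3) and 3 in control replicate 7 (Chrm3, Chrm4 and Chrna7), and 0 in each fear conditioned library, where 1.2%, 0.981% and 0.826% of all tested genes were that low in replicates 2, 3 and 4. Without control replicate 6, limma called 6 of the 10 genes (Chrm2, Chrm3, Chrm4, Chrna4, Chrna7 and Chrnb2) together with 8025 genes of 13268 tested. Without control replicate 7 it called Chrna4 together with 3722 of 13550. The lone control of each such fit is assumed to vary like the fear conditioned libraries. DESeq2 on the recovered reads called Chrm3 and Chrna4, both higher, where it called 3.68% of all genes higher and 7.47% in either direction.

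**Figure D5:**
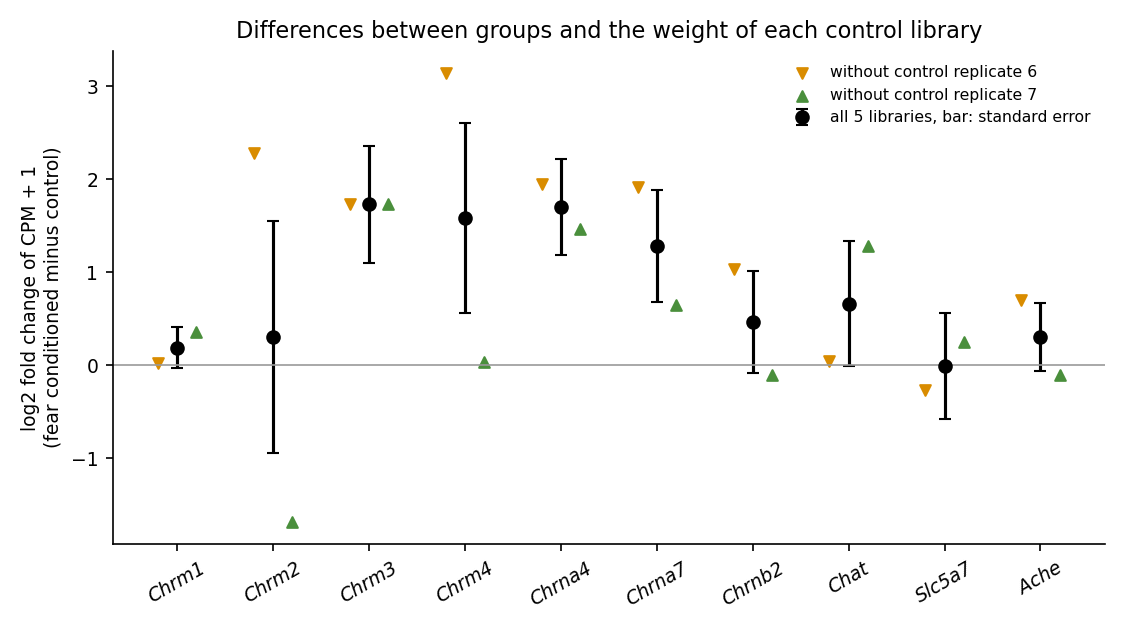
Log2 fold change of CPM + 1, fear conditioned minus control, for the 10 genes. Black points with standard error bars use all 5 libraries, and triangles show the value without control replicate 6 or without control replicate 7. Chrna4 and Chrm3 stay above 1 in all 3 versions, while Chrm2, Chrnb2, Slc5a7 and Ache change sign.

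The genes that serve nicotinic receptors were mixed. Of 13 chaperones and prototoxins, all were listed and tested, 0 were called, 1 was higher and 2 were lower at an unadjusted p under 0.05, and the median log2 fold change was -0.02. Rer1, which retains unassembled subunits in the early secretory pathway, had 209, 156 and 176 CPM after fear conditioning, beside 117 and 109 in the controls (log2 fold change 0.66, adjusted p = 0.244, limma). Lypd1, a Ly6 protein that binds nicotinic receptors, had 59.1, 64.5 and 31.6 CPM against 126 and 108 (log2 fold change -1.22, adjusted p = 0.221, limma). Vsnl1, a calcium sensor, had 92.0, 48.5 and 45.3 CPM against 143 and 458 (log2 fold change -2.11, adjusted p = 0.206, limma), and DESeq2 called it lower. The groups did not overlap for any of these 3, which were named for their unadjusted p in this same comparison. Of the 13 genes, 2 lay above both controls and 2 below, beside 20.2% and 16.1% of all tested genes. At an unadjusted p under 0.05, 9.49% of all tested genes were higher and 7.32% lower. DESeq2 did not call Rer1 or Lypd1.

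In the list for acetylcholine synthesis, transport and breakdown, 11 of 15 genes were listed and 10 tested, with 0 called by limma, 0 higher and 2 lower at an unadjusted p under 0.05 and a median log2 fold change of 0.05. Over all tested genes, 9.49% were higher and 7.32% lower at that p. The 2 lower genes handle choline rather than acetylcholine and are active in most cells. Slc44a2, a choline transporter-like protein, had 14.03, 12.6 and 15.1 CPM after fear conditioning, beside 51.3 and 75.1 in the controls (log2 fold change -2.09, SE 0.37, limma adjusted p = 0.197). Chkb, a choline kinase, had 25.6, 21.0 and 21.3 CPM against 43.8 and 95.9 (log2 fold change -1.48, SE 0.42, limma adjusted p = 0.216). DESeq2 called both lower, and both were named for their unadjusted p in this same comparison. Of the 10 tested genes of this list, 0 lay above both controls and 2 below, beside 20.2% and 16.1% of all tested genes. Among the 10 tested cholinergic identity genes, Isl1 and Slc17a8 were higher at an unadjusted p under 0.05, for which they were named. None of the 10 was called by limma, and 3 lay above both controls and 0 below, beside the same shares of all tested genes. Isl1, which other striatal neurons also express, had 16.3, 10.1 and 17.7 CPM against 5.24 and 0.79 (log2 fold change 2.20, adjusted p = 0.234, limma). Slc17a8 had 44, 99 and 207 reads against 0 in both controls and was tested only through the fear conditioned libraries. Its mean over the fear conditioned libraries was at least 42.5-fold above the mean floor of the controls. DESeq2 called Slc17a8 (adjusted p = 0.000311), and limma (adjusted p = 0.214) and edgeR's quasi-likelihood test (adjusted p = 0.156) did not. DESeq2 did not call Isl1 (adjusted p = 0.118), and edgeR's test called no gene of the whole comparison.

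Downstream of the muscarinic receptors, 14 of 15 Gq effectors were listed and tested, with 0 called by limma, 1 higher and 3 lower at an unadjusted p under 0.05 and a median log2 fold change of -0.09. Over all tested genes, 9.49% were higher and 7.32% lower at that p. Kcnq3, a subunit of the M-current channel that muscarinic receptors close, had 6.68, 8.08 and 8.24 CPM after fear conditioning, beside 1.80 and 0 in the controls (log2 fold change 2.37, adjusted p = 0.210, limma). Its mean over the controls was under 1, so Kcnq3 was tested only through the fear conditioned libraries. The lower genes were Gnaq, the Gq alpha subunit, Plcb3, a phospholipase C, and Prkca, a protein kinase C. Prkca had 32.0, 40.7 and 44.3 CPM against 85.7 and 91.8 (log2 fold change -1.18, adjusted p = 0.197, limma). DESeq2 called Prkca lower (adjusted p = 0.00889) but did not call Kcnq3, Gnaq or Plcb3. These genes were named for their unadjusted p in this same comparison. Of the 14 genes, 1 lay above both controls and 3 below, beside 20.2% and 16.1% of all tested genes.

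Of 15 Gi effectors, all were listed and tested, 0 were called by limma, 2 were higher and 2 lower at an unadjusted p under 0.05, and the median log2 fold change was -0.31. Rgs9, a striatal regulator of G protein signalling, and Gng7, a G protein gamma subunit, were the higher pair, and Rgs9 had 385, 562 and 476 CPM against 112 and 259 (log2 fold change 1.46, adjusted p = 0.206, limma), which DESeq2 called (adjusted p = 0.0477). Gnai1, a Gi alpha subunit, had 129, 133 and 109 CPM against 296 and 195 (log2 fold change -0.95, adjusted p = 0.208, limma) and was called lower by DESeq2 (adjusted p = 0.0173), and the kinase gene Grk2, listed under its older symbol Adrbk1, was lower as well. The fear conditioned libraries lay on one side of both controls for each of these 4 genes, which were named for their unadjusted p in this same comparison. Of the 15 genes, 3 lay above both controls and 6 below, beside 20.2% and 16.1% of all tested genes. At an unadjusted p under 0.05, 9.49% of all tested genes were higher and 7.32% lower. DESeq2 did not call Gng7 or Grk2.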

How the data were processed

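TRAP RNA of 5 libraries, each a pool of 3 animals, was analysed. The deposited values are a signal per gene: counts that the authors divided by an effective library size, close to CPM. The submitters' processing notes name DESeq and the mouse build mm8, while the aligner, the versions and the use of strand are not given in the sources used here. The deposited table also holds a gene length as the authors gave it, at or below 0 for 9 genes. Dividing by the value of 1 read gave whole reads for 100.0% of values within 0.01. The table held no columns left unused, and 43 repeated names were joined by identifier. Coordinates are those of the RefSeq table, GRCm38.p6, and not of the build of the files.

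Testing covered the 13560 of 15093 genes whose mean value reached 1, by limma 3.58.1 in R 4.3.3 on log2(value + 1), with an intensity trend and Benjamini-Hochberg adjustment. A call needed both an adjusted p under 0.05 and a log2 fold change beyond 0.5 in either direction. Alternatives were edgeR 4.0.16 (quasi-likelihood) and DESeq2 1.42.0 on the recovered reads, quantile normalization, a pseudocount of 0.1, other filters and cutoffs, and each library left out. Ratios within libraries were compared by exact permutation over the 10 assignments (Python 3.11.15, scipy 1.17.1), with values at or below 3 reads set to 3 reads. Of the 11 ratios, 4 were added after the values were seen: Slc5a7, Chrm1 and Chrna4 to Drd2, and Chat to Slc5a7. The scripts were tested on simulated data. The members and lists (142 of 160 list genes were in the table, and 1 further gene of the cholinergic identity list is not reported here) were chosen with earlier results of these data known. Named genes were the members, list genes with an unadjusted p under 0.05 or at 0 in every library of a group, defining markers, and the 3 genes nearest in profile to Chrm4 and to Chat, with the exceptions said to be chosen after their values were seen. Nothing in the sources used here describes the libraries of a group beyond pools of animals, so p-values measure only the spread between these pools.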

Additional observations from a re-analysis of the deposited data

How the results depend on the processing

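With all 5 libraries, no setting that kept limma or edgeR called any of the 10 genes. With DESeq2 on the recovered reads, 2 were called higher, beside 556 genes higher and 572 lower in all. The direction of 3 low or uneven genes changed with the setting. Chrm2 was at -0.42 with quantile normalization, -0.63 with edgeR, -0.61 with edgeR without a filter and -0.66 with DESeq2. Slc5a7, near 0 throughout, was at 0.13, 0.15, 0.16 and 0.12 in the same order, and Chrna2 at -0.21, -0.32, -0.31 and -0.36. The cause was not tested. The median of all genes was 0.08, and 0.16 with a pseudocount of 0.1, 0.03 with quantile normalization and -0.11 with DESeq2.

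Leaving out 1 library at a time gave 0 to 6 of the 10 genes called higher, 0 to 4808 genes called higher in all and 0 to 3217 called lower, the highest counts without control replicate 6. Without a fear conditioned library at most 1 gene was called. The cause was not tested. With 1 fear conditioned library left out, genes of the 10 with the remaining ones above both controls numbered 3 to 5, and those below 0 to 1. The share over all tested genes was not counted for these settings. With any 1 library left out, the log2 fold change ranged from -1.68 to 2.29 for Chrm2 and -0.11 to 1.03 for Chrnb2. It ranged from -0.49 to 0.30 for Slc5a7, -0.10 to 0.70 for Ache and -1.21 to 1.55 for Chrna2. The difference in the log2 ratio ranged from -0.35 to 5.75 for Chrm4 to Chrm1, -1.65 to 5.14 for Chrm4 to Drd2, -1.29 to 5.27 for Chrm2 plus Chrm4 to Chrm1 plus Chrm3, -1.77 to 0.0714 for Ache to Drd2 and -0.0567 to 1.56 for Chrna4 to Drd2. No paired analysis was possible because the groups share no replicate numbers. At the floor of 3 reads were Chrm3 in both controls and Chrm4 and Chrna7 in control replicate 7 alone.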

Other observations

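The genes whose log2(CPM + 1) profile over the 5 libraries lay nearest to that of Chrm4, by the root mean square difference of the centred values, were Cntfr (0.147), Xkr6 (0.176) and Fgf11 (0.206). Cntfr, a receptor subunit for ciliary neurotrophic factor, had 16.8, 7.75 and 21.7 CPM after fear conditioning, beside 11.6 and 0.63 in the controls. Fgf11, an intracellular fibroblast growth factor homologue, had 30.2, 17.3 and 38.3 CPM against 25.3 and 1.37. Like Chrm4, these genes were lowest in control replicate 7 and highest in fear conditioned replicate 4. Chrm1 was 7407th in this order for Chrm4.

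The genes nearest to Chat were Gm3511 (0.232), Mir5115 (0.238) and Hist1h4d (0.279), all of low level, and Slc5a7 was 52nd (0.444). Gm3511 had 2.23, 1.58 and 6.26 CPM after fear conditioning, beside 1.00 and 3.90 in the controls. With 5 libraries and many genes, near profiles of this kind are a description only.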
